A study of Ogataea parapolymorpha with 16 samples.

Results

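NUCM, NUGM, NUIM and NUKM encode the subunits that make up the ubiquinone module of mitochondrial complex I in the yeast Ogataea parapolymorpha. They were taken by locus tag (HPODL_01297, HPODL_03393, HPODL_02101 and HPODL_02758, in that order) and are 4 of the 5408 genes for which transcript levels were deposited. All 4 were measured in every sample and passed the filter on low values. Polyadenylated RNA was sequenced from aerobic, glucose-grown bioreactor cultures of strain IMD010, in which a frameshift in NUBM leaves the cells without functional complex I, and of its congenic wild type CBS11895. IMD010 is a single clone, and none of the 4 genes was itself altered. Each strain was grown in late-stage retentostats (specific growth rate 0.001 per h, 5 g per liter glucose in the feed), in glucose-limited chemostats at 0.025 and 0.1 per h and in batch culture at 0.37 per h (7.5 g per liter glucose each), all at 30 °C and pH 5.0. With 2 independent cultures per strain and condition, there were 16 samples in 8 groups. All comparisons are of RNA, and protein levels were not analysed here.

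Complex I oxidizes NADH at a peripheral arm, passes the electrons down a chain of iron-sulfur clusters to ubiquinone and couples this to proton pumping in its membrane arm. The ubiquinone module lies between the NADH-oxidizing module, to which Nubm belongs, and the membrane arm, and it holds the last clusters of the chain and most of the pocket in which ubiquinone is reduced. Nucm lines that pocket together with Nukm, which carries the terminal iron-sulfur cluster, Nuim carries a pair of clusters just before it, and Nugm, which like Nucm carries none, braces the module. Fungi such as this yeast can also oxidize NADH with single-subunit alternative dehydrogenases that pump no protons.

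The genes lie on 4 chromosomes of the CBS11895 (DL-1) assembly. NUCM spans positions 347741 to 349003 of chromosome VI (1263 bp), NUGM 665929 to 666768 of chromosome IV (840 bp), NUIM 496367 to 497005 of chromosome I (639 bp) and NUKM 678133 to 678714 of chromosome VII (582 bp). Each annotated length was a multiple of 3, as that of a coding sequence would be, but this does not show that untranslated regions are absent. None of the 4 overlapped another annotated gene. The nearest neighbour was 57 bp from NUCM, 60 bp from NUGM, 174 bp from NUIM and 123 bp from NUKM.

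Between 16522183 and 20898682 reads were recovered per sample, and the 4 genes were covered by 3632 (NUKM) to 22880 (NUGM) reads in a sample. At the lowest of these counts the counting error was 1.66%, so the spread between cultures, not depth, set the precision. In 7 of the 8 groups the log2 difference between the 2 cultures had an SD over genes of 0.14 to 0.28. In IMD010 chemostats at 0.1 per h it was 0.89, and 119 genes differed by more than 2 on the log2 scale. Culture 1 of that group stood apart: it differed from the CBS11895 chemostats at 0.1 per h by an SD of 0.97, while culture 2 differed from them by 0.27. In CBS11895 batch cultures, short genes lay low. The 771 genes of 582 to 840 bp, the range that holds NUGM, NUIM and NUKM, had a median log2 deviation from their own mean over the 16 samples of -0.55 and -0.38 there, against 0.04 and 0.08 in IMD010 batch cultures. The 686 genes within 10% of the length of NUCM (1137 to 1389 bp) stood at 0.21 and 0.17 in CBS11895 batch cultures, against 0.02 and 0.03 in IMD010 batch cultures. Results that rest on these cultures are given below with and without them, or with the trend on gene length removed.

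Levels are given per length, as fragments per kilobase of annotated gene, scaled to library size with TMM factors (FPKM), since the divisor in the deposited values does not follow gene length. NUIM was the most abundant of the 4 in 14 of the 16 samples, and NUCM the least abundant in 12 and NUGM in the other 4. All 4 were among the more abundant transcripts: in every sample each was above at least 87.5% of the 5400 genes with reads, and none was above more than 97.7%. NUGM covered the widest range, with its highest sample 6.68-fold above its lowest. The corresponding ratio was 4.95 for NUKM, 4.003 for NUIM and 2.63 for NUCM.

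**Figure D1:**
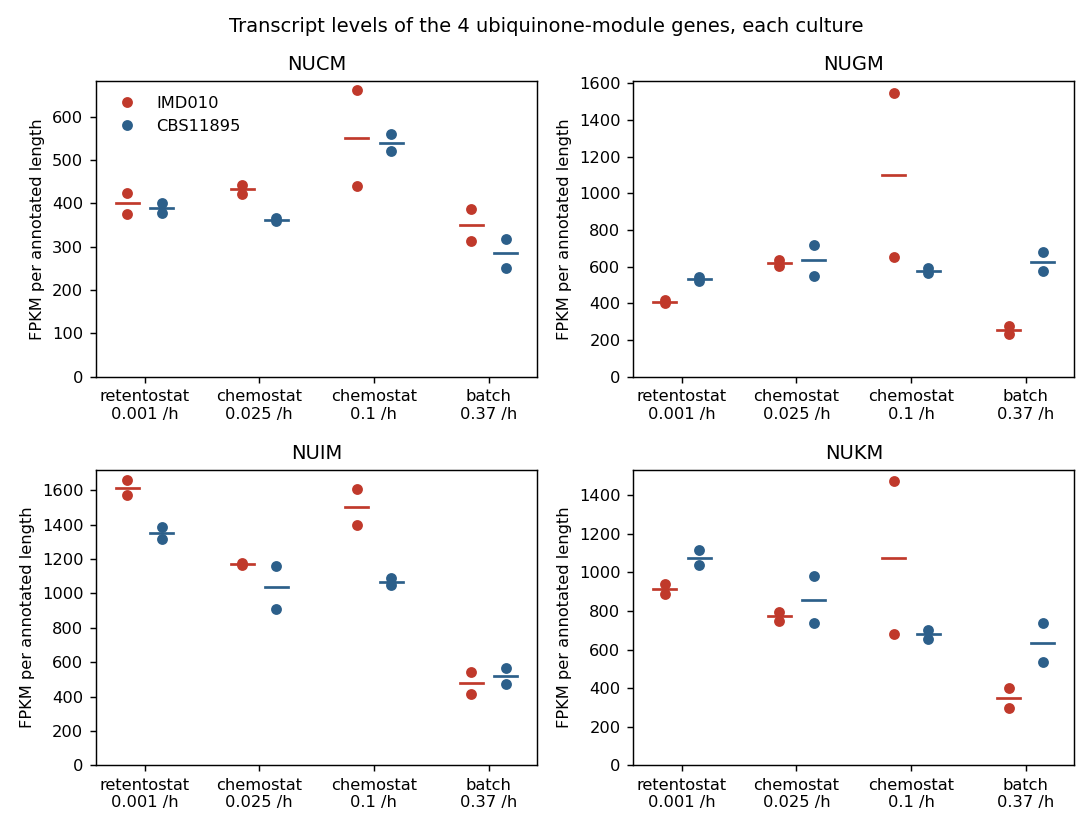
Transcript levels of NUCM, NUGM, NUIM and NUKM (FPKM per annotated length, linear axes starting at 0) in each culture by condition, from the lowest to the highest growth rate; points are cultures, lines are means of 2, red is IMD010 and blue CBS11895. The 2 IMD010 chemostat cultures at 0.1 per h are far apart for NUGM (1546 and 650 FPKM) and NUKM (1473 and 679 FPKM), and both IMD010 batch cultures lie below both CBS11895 batch cultures for these genes.

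NUCM, the ubiquinone-pocket subunit with the longest gene of the 4, varied least. In IMD010 it had 376 and 424 FPKM in retentostats, 443 and 422 FPKM at 0.025 per h, 440 and 662 FPKM at 0.1 per h and 313 and 388 FPKM in batch. In CBS11895 it had 402 and 378 FPKM in retentostats, 366 and 359 FPKM at 0.025 per h, 559 and 520 FPKM at 0.1 per h and 252 and 319 FPKM in batch. The highest mean was in chemostats at 0.1 per h and the lowest in batch in both strains. The strains overlapped in every condition but 0.025 per h, where both IMD010 cultures were above both CBS11895 cultures.

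NUGM, whose product braces the module, had 416 and 401 FPKM in IMD010 retentostats, 602 and 634 FPKM at 0.025 per h, 1546 and 650 FPKM at 0.1 per h and 232 and 278 FPKM in batch. In CBS11895 it stayed within 522 to 720 FPKM in all 8 cultures, with 545 and 522 FPKM in retentostats, 547 and 720 FPKM at 0.025 per h, 593 and 565 FPKM at 0.1 per h and 574 and 679 FPKM in batch. Its range in IMD010 therefore enclosed that of CBS11895, with the lowest value in batch and the highest in culture 1 at 0.1 per h.

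NUIM, which carries a pair of iron-sulfur clusters, had 1656 and 1573 FPKM in IMD010 retentostats, 1174 and 1166 FPKM at 0.025 per h, 1607 and 1398 FPKM at 0.1 per h and 414 and 546 FPKM in batch. In CBS11895 it had 1386 and 1317 FPKM in retentostats, 910 and 1159 FPKM at 0.025 per h, 1089 and 1047 FPKM at 0.1 per h and 471 and 568.7 FPKM in batch. In both strains every batch culture was below every glucose-limited culture. Both IMD010 cultures were above both CBS11895 cultures in each of the 3 glucose-limited conditions, by the narrowest margin at 0.025 per h, and the strains overlapped in batch. Counted over the genes, the strains did not overlap for 3 of the 4 in retentostats (all but NUCM), 2 at 0.025 per h (NUCM and NUIM), 2 at 0.1 per h (NUGM and NUIM) and 2 in batch (NUGM and NUKM). Over all genes tested the share without overlap was 69% in retentostats, 62.9% at 0.025 per h, 55% at 0.1 per h and 90.9% in batch.

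NUKM, which carries the terminal cluster, had 938 and 890 FPKM in IMD010 retentostats, 751 and 793 FPKM at 0.025 per h, 1473 and 679 FPKM at 0.1 per h and 298 and 402 FPKM in batch. In CBS11895 it had 1114 and 1037 FPKM in retentostats, 737 and 979 FPKM at 0.025 per h, 703 and 656 FPKM at 0.1 per h and 534 and 739 FPKM in batch. Batch was below all other cultures in IMD010, whereas in CBS11895 the batch cultures overlapped those at 0.1 and 0.025 per h.

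Ratios between the genes within a culture do not depend on how a sample is scaled. They were not corrected for the trend on gene length. Genes of 582 to 840 bp had a median log2 deviation of -0.55 and -0.38 in the CBS11895 batch cultures. Whether the order of NUIM, NUGM and NUKM there holds with that trend removed was not tested. The NUIM to NUGM ratio was 3.98 and 3.92 in IMD010 retentostats and 2.54 and 2.52 in CBS11895 retentostats, the highest of all conditions in each strain. It was 1.79 and 1.96 in IMD010 batch cultures, against 0.821 and 0.837 in CBS11895 batch cultures, the only group in which NUIM was below both NUGM and NUKM. In CBS11895 batch the levels were 637 ± 144 FPKM for NUKM, 627 ± 74.4 FPKM for NUGM and 520 ± 69.0 FPKM for NUIM (mean ± SD, n = 2). There both NUGM cultures were above both NUIM cultures, and NUKM did not separate from NUGM by more than the spread. Nor did NUCM (351 ± 52.9 FPKM) separate from NUKM (350.1 ± 73.9 FPKM) in IMD010 batch (mean ± SD, n = 2).

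The NUKM to NUGM ratio was highest in the retentostats of both strains. It was 2.25 and 2.22 in IMD010 retentostats and 2.05 and 1.99 in CBS11895 retentostats, against 0.931 to 1.45 in the other 12 cultures. Culture 1 of IMD010 at 0.1 per h was no exception, with a ratio of 0.953, next to 1.04 in culture 2: NUGM and NUKM stood higher in culture 1 by about the same factor. Its NUGM to NUCM ratio was 3.52, against 0.983 in culture 2 and 1.06 and 1.09 in the CBS11895 cultures at that rate. Genes of 582 to 840 bp as a class stood slightly low in culture 1 (median log2 deviation -0.10, against 0.08 in culture 2).

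**Figure D2:**
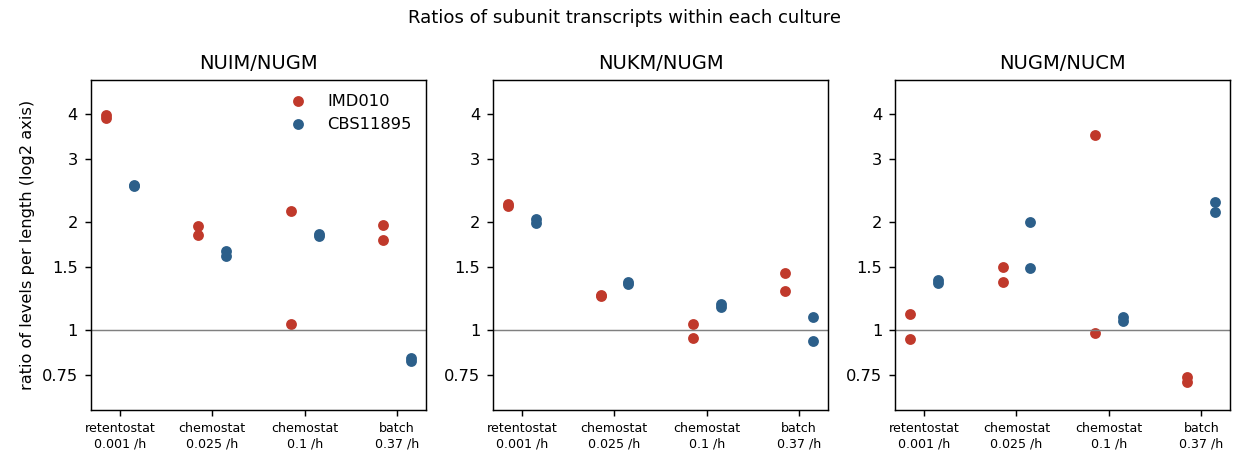
Ratios of levels per length within each culture (log2 axis) for NUIM to NUGM, NUKM to NUGM and NUGM to NUCM, by condition from the lowest to the highest growth rate; points are cultures, red is IMD010, blue is CBS11895 and the grey line marks 1. NUIM to NUGM is below 1 only in CBS11895 batch cultures, and NUKM to NUGM is highest in the retentostats of both strains. The ratios are not corrected for the trend on gene length.

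The comparison of IMD010 with CBS11895 under each condition asks whether genes for the neighbouring module respond when the NADH-binding subunit is lost. In batch cultures, NUGM and NUKM were lower in IMD010 and NUCM and NUIM were not called. NUGM averaged 255 ± 32.8 FPKM in IMD010 and 627 ± 74.4 FPKM in CBS11895 (SD, n = 2 each), a log2 difference of -1.29 (SE 0.30, limma adjusted p = 0.00303). NUKM averaged 350.1 ± 73.9 FPKM in IMD010 and 637 ± 144 FPKM in CBS11895 (SD, n = 2 each), a log2 difference of -0.86 (SE 0.30, limma adjusted p = 0.0247). The log2 difference was 0.30 for NUCM (SE 0.19, adjusted p = 0.173) and -0.12 for NUIM (SE 0.16, adjusted p = 0.509). All log2 differences are on the scale of log2(FPKM + 1), with the deposited FPKM after TMM scaling and not the FPKM per length. A call means an adjusted p under 0.05. Shares of all genes called by limma are from the main fit of all 16 samples, and none is given for its alternatives.

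The count of 2 lower genes among the 4 stood against a background in which 42.9% of the 5233 genes tested were lower and 30.6% higher in IMD010 batch cultures, with a median log2 difference of -0.21. When the trend on gene length was removed, all 4 genes were called: NUGM was lower by a log2 difference of -1.47, NUKM by -1.54 and NUIM by -0.69, and NUCM was higher by 0.54. The share of all genes called with the trend removed is not given. Without TMM scaling, which moved the median of all genes to 0.13, the sign of NUIM turned to 0.23, NUCM was called at 0.65 and NUKM was no longer called at -0.51, while NUGM remained called at -0.95. The NUKM call was also lost without IMD010 batch culture 1 (log2 difference -0.64) and without CBS11895 batch culture 2 (-0.62), and NUIM was at 0.08 and 0.01 without these. NUCM was called at 0.30 once either IMD010 culture at 0.1 per h, which only adds to the shared spread here, was left out (adjusted p = 0.0434). NUGM was called whichever culture was left out (-1.43 to -1.16).

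**Figure D3:**
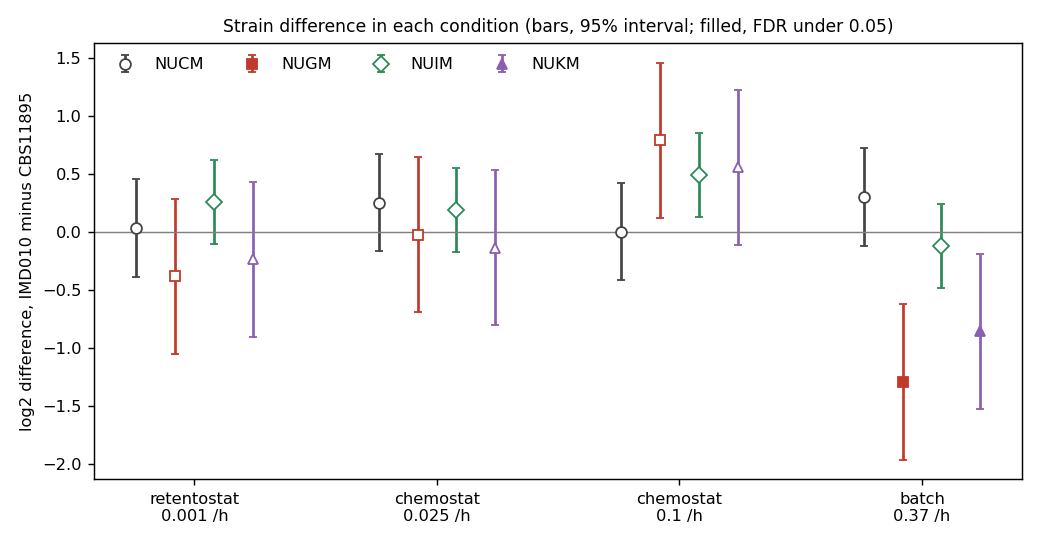
Log2 difference between IMD010 and CBS11895 (IMD010 minus CBS11895) for each gene and condition, with 95% intervals from the limma fit; filled symbols have an adjusted p under 0.05. Only NUGM (-1.29) and NUKM (-0.86) in batch are filled.

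None of the 4 genes was called between the strains in the glucose-limited conditions. In chemostats at 0.1 per h the log2 difference was 0.79 for NUGM (SE 0.30, adjusted p = 0.0996), 0.49 for NUIM (SE 0.16, adjusted p = 0.0886), 0.56 for NUKM (SE 0.30, adjusted p = 0.171) and 0.00 for NUCM (95% interval -0.42 to 0.42). At an unadjusted p under 0.05, 2 of the 4 passed there, and limma with voom weights on the recovered reads called 0. In this comparison 3.38% of all genes were called in either direction. The values of NUGM and NUKM rest on IMD010 culture 1. Without it NUGM differed by 0.17 and NUKM by -0.0013, and without culture 2 by 1.42 and 1.12. NUIM differed by 0.39 without culture 1 and 0.59 without culture 2, and NUCM by 0.30 and -0.29.

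At 0.025 per h the log2 differences were 0.25 for NUCM, -0.02 for NUGM, 0.19 for NUIM and -0.14 for NUKM, and 1.49% of all genes were called. In retentostats they were 0.03 for NUCM, -0.38 for NUGM (95% interval -1.05 to 0.29), 0.26 for NUIM (95% interval -0.11 to 0.62) and -0.23 for NUKM, and 3.59% of all genes were called. In both conditions 0 of the 4 had an unadjusted p under 0.05, and 0 were called with voom weights. The spread in this fit is shared over all 8 groups, including the IMD010 cultures at 0.1 per h. When only the 4 retentostat samples were fitted, NUGM (adjusted p = 0.0162) and NUIM (adjusted p = 0.0495) were called by limma, with NUGM lower and NUIM higher in IMD010. The share of all genes called in this smaller fit is not given, so these calls have no background beside them. Averaged over the 4 conditions, NUCM differed by 0.15, NUGM by -0.23, NUIM by 0.20 (adjusted p = 0.0887) and NUKM by -0.17, and none was called, against 28.1% of all genes. At an unadjusted p under 0.05, 1 of the 4 (NUIM) passed, and voom weights called 0. Without IMD010 culture 1 at 0.1 per h, NUGM (-0.38) and NUKM (-0.31) were called lower and NUCM (0.22) higher, and without culture 2 NUIM (0.23) was called higher.

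The comparison of batch with chemostat cultures at 0.1 per h asks how the genes respond to glucose excess and fast growth. In IMD010 all 4 were lower in batch, and in CBS11895 NUCM and NUIM were. In IMD010, NUGM averaged 255 ± 32.8 FPKM in batch and 1098 ± 633 FPKM at 0.1 per h (SD, n = 2 each), a log2 difference of -1.98 (SE 0.30, limma adjusted p = 0.000336). NUIM averaged 480 ± 93.2 FPKM in IMD010 batch and 1503 ± 148 FPKM in IMD010 at 0.1 per h (SD, n = 2 each), a log2 difference of -1.65 (SE 0.16, limma adjusted p = 1.45e-05). The log2 difference in IMD010 was -1.53 for NUKM (SE 0.30, adjusted p = 0.00182) and -0.63 for NUCM (SE 0.19, adjusted p = 0.0177). Of all genes, 27.7% were lower and 24% higher in IMD010 batch cultures. Without IMD010 culture 1 at 0.1 per h the log2 difference was -1.35 for NUGM and -0.97 for NUKM, and without culture 2 it was -2.60 and -2.08, all called. The NUCM call was lost without culture 2 at 0.1 per h (-0.34), without batch culture 1 (-0.48) and without TMM scaling (-0.59).

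In CBS11895, NUIM averaged 520 ± 69.0 FPKM in batch and 1068 ± 29.7 FPKM at 0.1 per h (SD, n = 2 each), a log2 difference of -1.04 (SE 0.16, limma adjusted p = 0.000187). NUCM averaged 285 ± 47.5 FPKM in batch and 540 ± 27.5 FPKM at 0.1 per h (SD, n = 2 each), a log2 difference of -0.93 (SE 0.19, limma adjusted p = 0.0011). NUGM differed by 0.11 (95% interval -0.56 to 0.78) and NUKM by -0.11 (95% interval -0.78 to 0.56), and neither was called. Of all genes, 36.1% were lower and 37.9% higher in CBS11895 batch cultures. With the length trend removed, NUIM in CBS11895 was at -0.50, smaller in size but still called. The sign of NUGM in CBS11895 turned without TMM scaling (-0.31) and without batch culture 2 (-0.01), and that of NUKM turned when the length trend was removed (0.55) and without batch culture 1 (0.12).

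**Figure D4:**
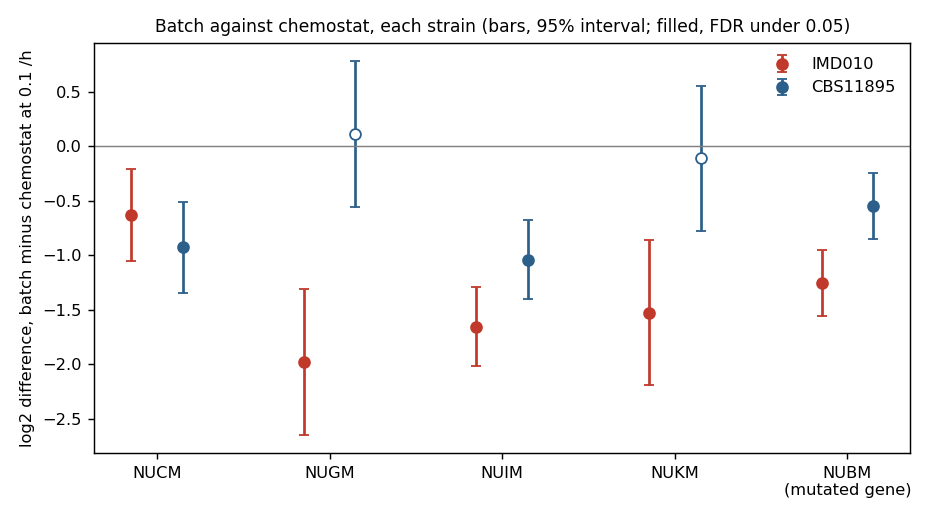
Log2 difference between batch cultures and chemostats at 0.1 per h (batch minus chemostat) in IMD010 (red) and CBS11895 (blue) for the 4 genes and for NUBM, the mutated gene, with 95% intervals from the limma fit; filled symbols have an adjusted p under 0.05. All red points are filled, and the blue points of NUGM (0.11) and NUKM (-0.11) are open.

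The batch effect differed between the strains for 3 of the 4 genes, each lower in IMD010, at a background of 44% of genes lower and 32.5% higher and a median of -0.27 over all genes. The interaction was -2.09 for NUGM (SE 0.43, limma adjusted p = 0.00156), -1.41 for NUKM (SE 0.43, adjusted p = 0.0113) and -0.61 for NUIM (SE 0.23, adjusted p = 0.0324), and 0.30 for NUCM (95% interval -0.29 to 0.89). With the length trend removed the interaction was larger for NUKM (-2.21) and NUIM (-1.26), and the same 3 genes were called. The NUGM and NUKM calls held whichever culture was left out (-2.71 to -1.46 for NUGM and -1.97 to -0.86 for NUKM, each lowest in size without IMD010 culture 1 at 0.1 per h). The NUIM call was lost without that culture (-0.51), without IMD010 batch culture 1 (-0.41), CBS11895 batch culture 2 (-0.48) or either CBS11895 culture at 0.1 per h (-0.64 and -0.58), and without TMM scaling (-0.15). NUCM was called at 0.59 without IMD010 culture 2 at 0.1 per h. With only the samples of this comparison in the fit, the IMD010 values kept their sizes but none of the 4 was called by limma (adjusted p = 0.0531 for NUIM, 0.0975 for NUGM, 0.142 for NUKM and 0.274 for NUCM), and of the interactions NUGM alone was called (adjusted p = 0.0214).

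Against the mean of the 3 glucose-limited conditions, in which the 0.1 per h cultures weigh less, 3 of the 4 were lower in IMD010 batch cultures, against 30.3% of all genes lower and 31.2% higher. The log2 difference was -1.57 for NUIM (SE 0.13, limma adjusted p = 1.89e-06), -1.36 for NUKM (SE 0.25, adjusted p = 0.000608) and -1.31 for NUGM (SE 0.25, adjusted p = 0.000774), and these 3 were called whichever culture was left out. NUCM was at -0.38 (adjusted p = 0.054), and was called without either IMD010 culture at 0.1 per h (-0.48 and -0.28). In CBS11895, 2 of the 4 were lower, NUIM at -1.14 (adjusted p = 1.17e-05) and NUCM at -0.58 (adjusted p = 0.00467), against 40.1% of all genes lower and 42.4% higher. With the length trend removed, NUIM in CBS11895 was at -0.50 and still called. The NUCM call was lost without CBS11895 batch culture 1 (-0.41). NUKM was at -0.44 in CBS11895 (adjusted p = 0.12) and was called when either IMD010 culture at 0.1 per h was left out (adjusted p = 0.0133), in the limma fit of only the samples compared (adjusted p = 0.0206) and without TMM scaling (-0.72), whereas with the length trend removed it was at 0.34 and not called. The difference between strains was called for NUGM (-1.42, adjusted p = 0.00404) and NUKM (-0.92, adjusted p = 0.034), against 42.7% of all genes lower and 31.1% higher. NUIM was called as well when the length trend was removed (-1.04) or when culture 2 of IMD010 in batch, either IMD010 culture at 0.1 per h, culture 1 of CBS11895 in batch or culture 2 of CBS11895 at 0.025 per h was left out (-0.63 to -0.40). The NUKM call was lost on leaving out culture 1 of IMD010 in batch (-0.70) or in retentostats, culture 2 of IMD010 at 0.025 per h, culture 2 of CBS11895 in batch (-0.69), in retentostats or at 0.1 per h, or culture 1 of CBS11895 at 0.025 per h (-0.91 to -0.85 for the other 5), and without TMM scaling (-0.52).

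Among the glucose-limited conditions the differences were smaller. At 0.025 per h, against 0.1 per h, NUCM was lower in CBS11895 (log2 difference -0.57, SE 0.19, limma adjusted p = 0.043), against 16.3% of all genes lower and 13.5% higher. The call was lost on leaving out any 1 of 12 cultures (-0.63 to -0.52), that is all but the CBS11895 batch cultures and the IMD010 cultures at 0.1 per h, as well as with median-of-ratios scaling (-0.55) and with the length trend removed (-0.50). None of the 4 was called in IMD010, where 50.4% of all genes were. There 1 of the 4 (NUGM, -0.70) had an unadjusted p under 0.05, and voom weights called 0. These IMD010 values differed with the culture kept at 0.1 per h: without culture 1 NUCM was called (-0.61), and without culture 2 NUGM (-1.32), NUKM (-0.93) and NUIM (-0.46) were.

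In retentostats, against 0.025 per h, the log2 difference for NUIM was 0.46 in IMD010 (SE 0.16, adjusted p = 0.0569) and 0.39 in CBS11895 (SE 0.16, adjusted p = 0.124). That for NUGM was -0.59 in IMD010 (adjusted p = 0.176) and -0.24 in CBS11895 (adjusted p = 0.646). None of the 4 was called by limma in either strain, against 28% of all genes in IMD010 and 17.9% in CBS11895. At an unadjusted p under 0.05, 1 of the 4 (NUIM) passed in each strain, and voom weights called 0. When either IMD010 culture at 0.1 per h was left out, which lowered the shared spread and left the values as they were, NUIM was called higher in retentostats of IMD010 (adjusted p = 0.0165) and of CBS11895 (adjusted p = 0.0376), and NUGM was called lower in IMD010 (adjusted p = 0.00264).

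In retentostats, against 0.1 per h, NUGM was lower in IMD010 (-1.29, SE 0.30, limma adjusted p = 0.00403), against 29.5% of all genes lower and 29.4% higher. This value was -0.67 without culture 1 at 0.1 per h and -1.92 without culture 2, called in both cases, and it was not called in the fit of only those 4 samples (adjusted p = 0.146). Without culture 1 NUCM (-0.73) was called as well, and without culture 2 NUKM (-0.69) was. In CBS11895 none was called by limma (NUKM 0.66, adjusted p = 0.114, and NUCM -0.47, adjusted p = 0.0771), against 36% of all genes. At an unadjusted p under 0.05, 1 of the 4 (NUCM) passed, and voom weights called 0. When either IMD010 culture at 0.1 per h was left out, NUKM (adjusted p = 0.00694) was called higher and NUCM (adjusted p = 0.00688) lower in CBS11895 retentostats.

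The strains were also compared for these effects of slow growth. Between 0.025 and 0.1 per h the effect differed for 0 of the 4 genes in the limma fit, and 0% of all genes were called. Between retentostats and 0.025 per h it differed for 0 of the 4, against 0.325% of all genes. Between retentostats and 0.1 per h it differed for 0 of the 4, against 0.783%, with NUGM at -1.17 (adjusted p = 0.204). At an unadjusted p under 0.05, 0, 0 and 1 of the 4 (NUGM) passed, in the order given, and voom weights called 0 in each. Without IMD010 culture 2 at 0.1 per h, NUGM and NUKM were called in both comparisons with 0.1 per h (-1.44 and -1.25 against 0.025 per h, -1.80 and -1.35 against retentostats), as was NUCM at 0.025 against 0.1 per h (0.55). Without culture 1 none was.

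When the levels in the 6 glucose-limited cultures of a strain, divided by their mean, were regressed on growth rate, NUCM was called in CBS11895. Its slope was 3.98 relative units per 1 per h (SE 0.873, R2 = 0.839, F test adjusted over all genes by Benjamini-Hochberg, adjusted p = 0.0416), where 17% of all genes had a positive and 12.2% a negative slope that passed. The call was lost without retentostat culture 2 (slope 4.12) or without either culture at 0.1 per h (3.49 and 4.41). NUKM in CBS11895 had a slope of -4.15 (R2 = 0.73, adjusted p = 0.084), short of the required R2 of 0.8, and passed without culture 1 at 0.025 per h (-4.45), as did NUIM (-2.18). In IMD010 the slope was 9.64 for NUGM (SE 4.34), 3.34 for NUCM (SE 1.69), 2.41 for NUKM (SE 3.15) and 0.14 for NUIM (SE 1.65), and none passed, against 5.48% of all genes with a positive and 5.58% with a negative slope that did. Without culture 1 at 0.1 per h NUCM passed (slope 5.80) and the slope of NUKM was -2.76, and without culture 2 NUGM passed (16.1). By the test of the interaction no slope of the 4 was called different between the strains (adjusted p = 0.535 for NUGM and NUKM, 0.635 for NUIM and 0.862 for NUCM). The share of all genes with a called slope difference is not given, so this result has no background beside it.

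The other nuclear subunits of complex I were read in the same fit. NUBM, whose transcript carries the frameshift and so does not by its level check the labels, had 327 and 315 FPKM in IMD010 retentostats, 287 and 269 FPKM at 0.025 per h, 441 and 439 FPKM at 0.1 per h and 159 and 213 FPKM in batch. In CBS11895 it had 264 and 245 FPKM in retentostats, 191 and 206 FPKM at 0.025 per h, 334 and 324 FPKM at 0.1 per h and 215 and 234 FPKM in batch. IMD010 was above CBS11895 in each glucose-limited condition and below it in batch, by log2 differences of 0.33, 0.49, 0.42 and -0.29 from the lowest to the highest growth rate. None was called in a single condition (0 of 4, with 3 at an unadjusted p under 0.05), whereas the mean of the 4 conditions was (0.24, limma adjusted p = 0.0245). Unlike NUGM and NUKM, NUBM had nearly the same level in both IMD010 cultures at 0.1 per h.

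In batch against 0.1 per h, the ubiquinone module had a median log2 difference of -1.59 in IMD010 and -0.52 in CBS11895, at medians of 0.00 and 0.04 over all genes. With the length trend removed these medians of the module were -1.71 in IMD010 and -0.12 in CBS11895. The counts that follow stand against 27.7% of all genes lower and 24% higher in IMD010 batch cultures, and 36.1% lower and 37.9% higher in CBS11895 batch cultures. Of the 3 NADH-oxidizing subunits, 2 were lower in IMD010 (median -1.26) and 3 in CBS11895 (median -1.08). NUHM moved most in both strains (-1.46 in IMD010 and -1.24 in CBS11895). Of the 23 accessory subunits, 19 were lower in IMD010 (median -1.15, from -2.21 for NIAM to -0.34 for ACPM1) and 18 in CBS11895 (median -1.61, from -3.89 for NUYM to 0.11 for ACPM1). With the length trend removed, the accessory subunits counted 23 lower in IMD010, and 13 lower and 3 higher in CBS11895. The shares of all genes given above are not from that fit. The 3 alternative NADH dehydrogenases were called higher in batch in both strains, with medians of 0.97 in IMD010 and 2.72 in CBS11895.

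Between the strains in batch, where 30.6% of all genes were higher and 42.9% lower in IMD010, the median of the ubiquinone module was -0.49, that of the NADH-oxidizing subunits -0.07 (0 of 3 called, 0 at an unadjusted p under 0.05) and that of the accessory subunits 0.59, with 13 accessory subunits higher in IMD010 (NUYM most, 2.02) and 4 lower (NB4M most, -1.35). With the length trend removed the NADH-oxidizing subunits had 1 higher and 1 lower, the accessory subunits turned to 4 higher and 11 lower (median -0.35), and the ubiquinone module had 1 higher and 3 lower (median -1.08). The alternative dehydrogenases were lower in IMD010 batch cultures in 3 of 3 cases (median -1.13, with Ndh2-3 lowest at -1.15 and Ndh2-1 at -0.63), and in 2 of 3 with the length trend removed. Of the 6 other respiratory subunits read, 2 were higher and 3 lower, from 2.92 for COX VIa to -1.66 for the ATP synthase beta subunit. Comparisons between the strains in batch and of batch with 0.1 per h share the batch cultures.

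Over the 16 samples, NUKM and NUIM had a Pearson r of 0.83 on the log2 scale, NUKM and NUGM of 0.74, NUCM and NUIM of 0.61, NUGM and NUIM of 0.47, NUCM and NUGM of 0.25 and NUCM and NUKM of 0.23. With the length trend removed these were 0.76, 0.84, 0.47, 0.60, 0.07 and -0.09 in the same order. Samples share strain and condition, so these values are descriptive. None of the 4 was close to the top of another's list: of the 5232 other genes tested, the best rank was 175, for NUKM by its likeness to NUGM. The 10 genes most like the mean of the 4 (each gene centred over the 16 samples) had r of 0.94 to 0.97. They included the accessory subunits NUEM (HPODL_03913, r = 0.97, rank 1) and NUZM (HPODL_02157, r = 0.96, rank 3). HPODL_02156, also among the 10 (r = 0.95), lies next to NUZM on chromosome I. The others were a D-galactonate transporter (HPODL_00869), an MFS transporter (HPODL_00618), the hypothetical proteins HPODL_01753 and HPODL_01656, and HPODL_03925, HPODL_02124 and HPODL_03809. By Spearman's rho 4 of these 10 remained among the top 10, without the CBS11895 batch cultures 7, without IMD010 culture 1 at 0.1 per h 6, and with the length trend removed 1. Outside the 10, the accessory subunits ranked from 48 (NIAM, r = 0.90) to 994 (NUUM, r = 0.48). NUHM ranked 161, NUBM 306 and NUAM 704. The alternative dehydrogenases ran the other way (r = -0.50 for Ndh2-1, -0.61 for Ndh2-2 and -0.66 for Ndh2-3).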

How the data were processed

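For each of the 16 samples the authors deposited FPKM values, 1 per gene, without a filter on low values. Per the labels and the methods of the study, reads were aligned with STAR 2.5.3a to the CBS11895 (DL-1) assembly, counted with HTSeq and processed with edgeR, and mRNA was enriched by poly(A) selection. The labels and the methods differ on whether the library kept strand. For each gene a whole-number divisor was sought that turned all its deposited FPKM values into whole reads. Reads were recovered for 5400 of 5408 genes, which are all the genes above 0 in any sample. That 100% of the values above 0 were then whole (tolerance 0.01 read) follows from this search. Total reads per sample had a median of 18514392.5. The deposited divisor (1 to 1120) was 92 for NUCM, 1065 for NUGM, 974 for NUIM and 951 for NUKM. It followed the order of gene lengths written as text (Spearman rho 0.993 over 4916 genes) rather than length itself (-0.353). Within a gene it is constant, so log2 differences are unaffected apart from the pseudocount. Levels were recomputed from the recovered reads and the annotated length (RefSeq, same assembly).

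The recovered reads gave TMM factors (trims of 30% and 5%), which rescaled the deposited values. A gene was kept if its mean reached 10 in any group (5233 genes), and log2(FPKM + 1) was fitted with limma 3.58.1 in R 4.3.3 as 1 model of 8 groups, with Benjamini-Hochberg adjustment over all genes. Intervals (95%) use the moderated standard error. For growth rate, a gene was called at an adjusted p under 0.1 and R2 above 0.8. The test was checked on simulated data with the same noise in every library and known changes in IMD010 batch only. The simulation held no divergent culture and no length trend, so it does not cover these features of the data. The labels call the samples biological duplicates, and p-values measure the spread between those cultures. Replicate numbers were not treated as pairing samples in the main fit. The genes named are the 4 subunits, NUBM, the extremes of each list and the 10 genes most like the module mean. Subunit names follow the study's homology assignment. The genes and lists were chosen with earlier results of these data known. Alternatives were other scalings, pseudocount, filters, weights, a replicate block, removal of the length trend, subsets of samples and omission of each culture. Use of annotated length and of voom weights was added after seeing the data. No sequences were used.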

Additional observations from a re-analysis of the deposited data

Results flagged for a closer look

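The response of NUGM, NUKM and NUIM to batch culture, against chemostats at 0.1 per h, differed between the strains by the interaction in the shared limma fit. The difference (IMD010 minus CBS11895) was -2.09 for NUGM, -1.41 for NUKM and -0.61 for NUIM. Against the mean of the 3 glucose-limited conditions it was -1.42 for NUGM and -0.92 for NUKM. The IMD010 and CBS11895 values behind them were -1.98 and 0.11 for NUGM, -1.53 and -0.11 for NUKM and -1.65 and -1.04 for NUIM in the first comparison. Of all genes, 44% had a called interaction in this direction in the first comparison and 42.7% in the second. The median over all genes was -0.27 in the first comparison. There the NUIM call was lost without TMM scaling (-0.15). The NUIM and NUKM calls were both lost with sample weights and in the fit of only the samples compared. Groups of 2 cultures are too small for a test of single outlying cultures.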

How the results depend on the processing

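The limma fit was repeated with other choices, changing 1 at a time except where 2 are named together. A pseudocount of 0.1, no filter on low values and an intensity trend in the variance changed no direction or call that the comparisons rest on. Without TMM scaling, the strain difference was -0.082 in retentostats and -0.11 at 0.1 per h for NUCM, 0.066 at 0.025 per h for NUGM, and in batch 0.65 for NUCM, 0.23 for NUIM and -0.51 for NUKM. The batch effect against 0.1 per h was then -0.59 for NUCM in IMD010 and -0.31 for NUGM in CBS11895, with an interaction of -0.15 for NUIM, and against the glucose-limited mean NUGM was at -0.17 and NUKM, now called, at -0.72 in CBS11895. NUGM in CBS11895 was at -0.10 at 0.025 against 0.1 per h, NUIM in IMD010 was at -0.11 in retentostats against 0.1 per h, and the strain difference of NUIM between retentostats and 0.025 per h was -0.14. Of the 4 genes, 1 was called for the mean of the conditions, 2 in IMD010 at 0.025 and 2 in retentostats against 0.1 per h, 1 in IMD010 retentostats against 0.025 per h, 1 in CBS11895 retentostats against 0.1 per h, and 1 for the strain difference against the glucose-limited mean. The NUCM strain difference at 0.1 per h was -0.037 with median-of-ratios scaling, -0.071 with the length trend removed and -0.0039 with voom weights, the last chosen after seeing the data. Median-of-ratios scaling left 0 genes called in CBS11895 at 0.025 against 0.1 per h. The causes of these changes were not tested.

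Removing the length trend, with or without the replicate block, gave strain differences in batch of 0.54 for NUCM and -0.69 for NUIM, so that 4 genes were called. It put NUKM in CBS11895 batch at 0.55 against 0.1 per h and 0.34 against the glucose-limited mean, and NUIM in IMD010 retentostats at -0.045 against 0.1 per h. It left 1 gene called in IMD010 and 0 in CBS11895 at 0.025 against 0.1 per h, and 1 in IMD010 retentostats against 0.025 per h. Over 28 pairs of groups the correlation of deviations by replicate number ran from -0.319 to 0.413, above 0.1 in 6. Pairing between some groups could therefore not be excluded. The replicate block by itself changed 1 call, that of NUCM in IMD010 batch against the glucose-limited mean (-0.38, adjusted p = 0.045).

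Sample weights and fits of only the samples compared change how much the IMD010 cultures at 0.1 per h count. In batch against 0.1 per h, both kept the IMD010 values (-0.63 for NUCM, -1.65 for NUIM, -1.53 for NUKM and -1.98 for NUGM), of which 1 (NUGM) was called with weights and 0 in the fit of only those samples, and both left 1 interaction called, having lost NUIM (-0.61) and NUKM (-1.41). Between the strains in retentostats 1 gene was called with weights and 2 in the smaller fit. In IMD010 retentostats against 0.025 per h the counts were 2 and 3, and against 0.1 per h 0 and 0, with 3 and 3 in CBS11895 retentostats against 0.1 per h. Requiring a log2 difference above 1 left 1 gene called between the strains in batch, 1 in CBS11895 batch against 0.1 per h, 1 in CBS11895 batch and 1 strain difference against the glucose-limited mean, and 0 in CBS11895 at 0.025 against 0.1 per h. It also dropped NUCM in IMD010 batch against 0.1 per h (-0.63) and the NUIM interaction of that comparison (-0.61). Requiring a log2 difference above 2 at an adjusted p under 0.001 left 0 in every comparison. With the deposited divisor in place of annotated length, NUIM was the highest of the 4 in 0 of 16 samples.

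When each of the 16 cultures was left out in turn, the lone culture of a group was assumed to vary like the other groups. The strain difference ranged from -0.052 to 0.12 for NUCM in retentostats, from -0.22 to 0.17 for NUGM and -0.34 to 0.066 for NUKM at 0.025 per h, from -0.29 to 0.30 for NUCM and -0.0013 to 1.12 for NUKM at 0.1 per h, and in batch from 0.13 to 0.47 for NUCM, -0.32 to 0.076 for NUIM and -1.09 to -0.62 for NUKM. Between 0 and 3 genes were called at 0.1 per h and for the mean of the conditions, and 1 to 3 in batch. The batch effect against 0.1 per h ranged from -0.92 to -0.34 for NUCM in IMD010, from -0.012 to 0.23 for NUGM and -0.34 to 0.12 for NUKM in CBS11895, and its interaction from 0.0047 to 0.59 for NUCM and -0.81 to -0.41 for NUIM. Against the glucose-limited mean, NUGM in CBS11895 ranged from -0.011 to 0.23, and 1 to 3 genes were called in CBS11895 and 1 to 3 for the strain difference. At 0.025 against 0.1 per h, NUKM in IMD010 ranged from -0.93 to 0.19, NUGM in CBS11895 from -0.080 to 0.31, NUIM in CBS11895 from -0.23 to 0.12 and the strain difference of NUCM from -0.042 to 0.55, with 0 to 3 genes called in IMD010, 0 to 1 in CBS11895 and 0 to 3 for the strain difference. In retentostats against 0.025 per h, the strain difference ranged from -0.11 to 0.24 for NUIM and -0.30 to 0.11 for NUKM, with 0 to 2 genes called in IMD010 and 0 to 1 in CBS11895. In retentostats against 0.1 per h, NUKM in IMD010 ranged from -0.69 to 0.43 and the strain difference of NUCM from -0.26 to 0.33, with 1 to 2 genes called in IMD010, 0 to 2 in CBS11895 and 0 to 2 for the strain difference. Slopes on growth rate ranged from -1.11 to 1.11 for NUIM and -2.76 to 6.30 for NUKM in IMD010 and from -0.21 to 0.82 for NUGM in CBS11895. Depth was not limiting for any of the 4 genes, and 2 cultures per group limited the precision.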
